A study of Mus musculus with 6 samples.

Results

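The heat shock chaperones described here are 10 genes of the cytosolic and mitochondrial protein folding machinery, taken by symbol from a table of 24054 genes. They are Hspa1a, Hspa1b, Hspa8, Hsph1, Hsp90aa1, Hsp90ab1, Dnajb1, Dnaja1, Hspd1 and Hspe1. Hspa1a and Hspa1b encode nearly the same HSP70 protein and share 54.2% and 55.8% of their 75-base stretches with another gene of the table, so their values were summed and the 10 genes gave 9 rows. All 9 rows were among the 12688 rows with enough reads for testing.

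RNA was measured by sequencing of polyadenylated transcripts in 6 libraries of mouse bone marrow-derived macrophages, cells grown from marrow in medium conditioned by L929 fibroblasts for 7 days. The 4 groups were C57BL/6 Kindlin3-integrin mutant cells left untreated (2 libraries), the same mutant genotype with 50 µg/ml oxLDL for 24 hours (2 libraries), C57BL/6 wild-type cells left untreated (1 library) and wild-type cells with the same oxLDL exposure (1 library). oxLDL is oxidised low-density lipoprotein, the form of the lipoprotein that macrophages take up in atherosclerotic lesions, and Kindlin-3, encoded by Fermt3, is an adaptor that binds integrin tails in blood cells. The study asked how wild-type and mutant macrophages differ in their response to this oxidised lipid.

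The labels give neither the kind of mutation nor the age of the mice, and they do not say whether replicates came from separate mice, so p-values rest on the spread between these libraries alone, which may be technical. Total counts ran from 11281692 to 24273551 per library. Fermt3 itself measured 239 and 248 CPM (the gene's share of its library's reads, with TMM, trimmed mean of M-values, scaling between libraries) in untreated mutant cells, 146 and 153 CPM in oxLDL-treated mutant cells, 404 CPM in untreated wild-type cells and 188 CPM in wild-type cells with oxLDL. Its transcript was thus present in all 6 libraries, and its level does not check a mutation of unknown kind. Macrophage markers summed to between 10108 and 30180 CPM, with Lyz2 the most abundant, while the fibroblast list stayed at or below 2.02 CPM. The lymphocyte list summed to at least 5.56 CPM, most of it Cd4 (4.72 to 8.40 CPM), with Cd3e, Ncr1 and Nkg7 at 0 in every library.

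Molecular chaperones bind unfolded proteins and keep them from aggregating. HSP70 proteins bind short hydrophobic stretches under the guidance of J-domain partners, release them with the help of nucleotide exchange factors such as HSP110, and pass some clients to HSP90, while HSP60 with its HSP10 lid encloses proteins folding inside mitochondria. Heat shock factor 1 switches on many of these genes by binding heat shock elements, alternating GAA and TTC units near the start of transcription.

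The promoter sequences are shown because several of these genes are textbook targets of heat shock factor 1, and because the mitochondrial pair Hspd1 and Hspe1 lie head to head and share a control region. RefSeq windows of build GRCm38.p6, from 250 bases before to 50 bases after an annotated start, were found for 7 of the 10 genes (12 windows). The printed stretches end 30 bases after the start and run 5′ to 3′ on the gene's own strand. Capitals mark each match to 2 neighbouring units facing each other, GAANNTTC or TTCNNGAA, and neighbouring matches overlap. The Hspe1 stretch lies at chr1:55087898-55088177 (plus strand), the Hspa1a stretch at chr17:34972127-34972406 (minus strand) and the Hsph1 stretch at chr5:149636286-149636565 (minus strand).
Hspe1: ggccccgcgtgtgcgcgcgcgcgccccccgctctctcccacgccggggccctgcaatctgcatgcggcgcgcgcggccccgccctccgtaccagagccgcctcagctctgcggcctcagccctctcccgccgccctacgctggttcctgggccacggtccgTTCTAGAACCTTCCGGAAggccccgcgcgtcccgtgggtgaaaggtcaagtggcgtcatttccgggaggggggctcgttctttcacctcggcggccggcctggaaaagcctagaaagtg
Hspa1a: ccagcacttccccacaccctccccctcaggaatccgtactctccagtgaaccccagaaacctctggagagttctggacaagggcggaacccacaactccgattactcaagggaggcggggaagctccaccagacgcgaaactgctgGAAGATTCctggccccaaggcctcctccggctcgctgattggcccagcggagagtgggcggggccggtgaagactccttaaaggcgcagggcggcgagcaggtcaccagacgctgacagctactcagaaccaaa
Hsph1: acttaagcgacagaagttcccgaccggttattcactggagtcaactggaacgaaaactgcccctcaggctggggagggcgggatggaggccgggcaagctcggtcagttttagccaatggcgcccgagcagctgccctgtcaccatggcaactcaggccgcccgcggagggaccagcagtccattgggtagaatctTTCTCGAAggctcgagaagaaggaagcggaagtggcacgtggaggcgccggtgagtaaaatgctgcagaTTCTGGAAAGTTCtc

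The Hspe1 window and the second of the Hspd1 windows, at chr1:55087883-55088182 on the minus strand, overlap by 285 bases, and so hold the same block of 3 overlapping matches. In the Hspe1 window the matches start at -89, -84 and -79 relative to the transcription start. The Hspa1a and Hspa1b windows were 98.7% identical and each held 1 match, at -104, and a CCAAT box between the match and the start. Hsph1 held 3 matches, 1 before the start and 2 just after it. Of the Dnaja1 windows 1 held a match, and neither Dnajb1 window did. Over all 32851 windows of this length, searched on both strands, 15.1% held at least 1 such match, and 0.603% held 3 alternating units in a row, as the Hspe1 and Hsph1 windows and the second Hspd1 window did. A match is a run of letters and was not tested as a binding site.

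**Figure D1:**
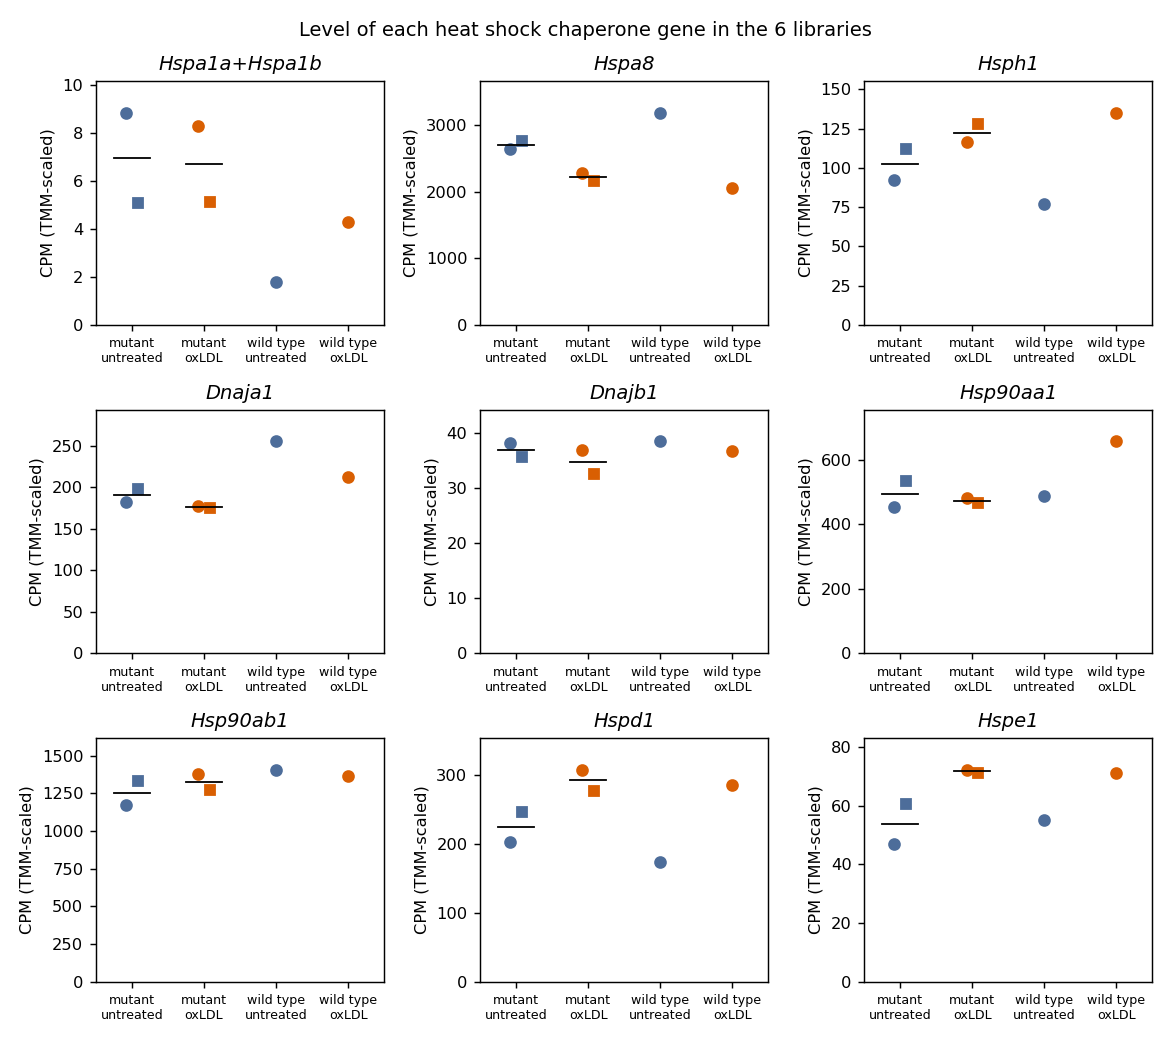
Level of each chaperone gene in the 6 libraries, in deposited TMM-scaled CPM on a linear axis from 0. Circles are replicate 1, squares replicate 2, bars the mean of the mutant pairs, blue untreated and orange oxLDL. Hspd1 and Hspe1 sit higher in all 3 oxLDL libraries than in the 3 untreated ones, and the sum of Hspa1a and Hspa1b is lowest in the untreated wild-type library at 1.79 CPM.

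Per length, the constitutive chaperones led. Divided by the length of the longest coding transcript, Hspa8, the everyday cytosolic HSP70, averaged 1049 CPM per kilobase over the 6 libraries, and Hsp90ab1, the constitutive HSP90, 525. Hsp90aa1, the inducible HSP90, averaged 156 CPM per kilobase, Hspd1 (HSP60) 102.5 and Hspe1 (HSP10) 81.3. The J-domain gene Dnaja1 averaged 35.6, the HSP110 gene Hsph1 29.0 and the J-domain gene Dnajb1 12.2 CPM per kilobase. The heat-inducible HSP70 genes Hspa1a and Hspa1b were last, at 1.11 and 0.819 CPM per kilobase. Neighbours in this order whose ranges over the 6 libraries overlapped were Hspd1 with Hspe1, Dnaja1 with Hsph1, and Hspa1a with Hspa1b.

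For oxLDL, the chaperones that changed were Hspd1, Hspe1 and Hspa8, across genotypes, a share of the 9 rows no larger than that of all genes. In the mutant, the comparison with 2 libraries on each side, 0 of 9 rows passed a false discovery rate (FDR) of 0.05 in edgeR's quasi-likelihood test, in which 35.6% of all tested genes passed. At an unadjusted p under 0.05 there were 2 rows, Hspd1 and Hspe1, against 46.1% of all genes. DESeq2 called 1 row, Hspa8, with 3699 genes called in all, and limma on the deposited values called 0 rows, with 4625 genes. The median log2 fold change of the 9 rows was -0.05, and that of all tested genes 0.01. Across genotypes, with 3 oxLDL against 3 untreated libraries and genotype as a covariate, 3 of 9 rows passed, against 40.5% of all genes. Hspd1 and Hspe1 rose (2 rows, against 19.1% of all genes called higher) and Hspa8 fell (1 row, against 21.4% called lower). The median was 0.09 for the chaperones and 0.01 for all genes. The mutant, wild-type and pooled oxLDL comparisons use the same libraries and are not independent of each other.

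The mitochondrial pair was higher with oxLDL. Hspd1, the HSP60 that forms the folding chamber of the matrix, measured 202 and 246 CPM in untreated mutant cells, 307 and 276 CPM with oxLDL, 173 CPM in untreated wild-type cells and 285 CPM with oxLDL. Every oxLDL library was above every untreated one. The means were 289 ± 15.8 CPM with oxLDL and 207 ± 36.8 CPM without (SD, n = 3 each, both genotypes). The log2 fold change across genotypes was 0.48 ± 0.12 (SE; 95% interval 0.19 to 0.77; 1.40-fold; edgeR adjusted p = 0.0208), and in the mutant alone 0.36 ± 0.13 (adjusted p = 0.0710).

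Hspe1, the HSP10 lid of that chamber, measured 46.9 and 60.7 CPM in untreated mutant cells, 72.2 and 71.2 CPM with oxLDL, 55.1 CPM in untreated wild-type cells and 71.3 CPM with oxLDL. The 3 oxLDL values lay between 71.2 and 72.2 CPM, above all untreated values. The means were 71.6 ± 0.567 CPM with oxLDL and 54.2 ± 6.95 CPM without (SD, n = 3 each). The log2 fold change across genotypes was 0.39 ± 0.11 (SE; 95% interval 0.12 to 0.66; 1.31-fold; edgeR adjusted p = 0.0323), and in the mutant alone 0.40 ± 0.14 (adjusted p = 0.0720).

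Both calls were lost in some fits with a library left out, with the direction kept. Calls over all genes fell in each fit with a library left out. Hspd1 did not pass without mutant untreated replicate 1 or mutant oxLDL replicate 1, and Hspe1 passed only when mutant untreated replicate 2 was the one left out. Without either wild-type library neither passed, but the test then becomes that of the mutant alone and is no separate check. Over all alternatives the log2 fold change lay between 0.36 and 0.60 for Hspd1 and between 0.29 and 0.50 for Hspe1. Of their 75-base stretches, 33.7% (Hspd1) and 23.7% (Hspe1) also occur in other annotated genes, none of which is in the count table.

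Among cytosolic HSP70 and HSP110 genes the directions differed. Hspa8 measured 2638 and 2755 CPM in untreated mutant cells, 2272 and 2162 CPM with oxLDL, 3182 CPM in untreated wild-type cells and 2052 CPM with oxLDL. All 3 oxLDL values were below all 3 untreated values, with means of 2162 ± 110 and 2858 ± 286 CPM (SD, n = 3 each). Hspa8 fell across genotypes by 0.41 on the log2 scale (SE 0.13; 95% interval -0.72 to -0.10; 1.33-fold; edgeR adjusted p = 0.0445). The call was lost with any 1 library left out, where calls over all genes fell as well. It was also lost with limma on the deposited values (limma adjusted p = 0.0734). Without either wild-type library the test becomes that of the mutant alone and is no separate check. Over all alternatives the log2 fold change of Hspa8 lay between -0.46 and -0.29. In the mutant alone the log2 fold change was -0.30 ± 0.14 (adjusted p = 0.162 with edgeR and 0.0206 with DESeq2). Of the 75-base stretches of Hspa8, 68.0% occur in other annotated genes, none of them in the count table.

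Hsph1, an HSP110 that exchanges nucleotide on HSP70, measured 92.3 and 112 CPM in untreated mutant cells, 117 and 128 CPM with oxLDL, 77.0 CPM in untreated wild-type cells and 135 CPM with oxLDL. Its untreated and oxLDL values did not overlap, with means of 93.9 ± 17.7 and 127 ± 9.22 CPM (SD, n = 3 each). It did not pass across genotypes (log2 fold change 0.43 ± 0.14, edgeR adjusted p = 0.0540). It passed with DESeq2 (0.0398), with limma (0.0421), without the filter on low counts (0.0191) and with mutant untreated replicate 2 left out (0.0327).

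The stress-inducible pair had the lowest levels of the set. The sum of Hspa1a and Hspa1b measured 8.85 and 5.07 CPM in untreated mutant cells, 8.31 and 5.12 CPM with oxLDL, 1.79 CPM in untreated wild-type cells and 4.29 CPM with oxLDL, from expected counts of 34.9 to 203 per library. The replicates of each mutant group differed more from each other than the groups did. The log2 fold change for oxLDL in the mutant was -0.05 ± 0.36 (95% interval -0.93 to 0.83; edgeR adjusted p = 0.927), and its sign turned with the library left out. Taken apart, Hspa1a ran from 1.02 to 6.31 CPM and Hspa1b from 0.768 to 4.03 CPM, and neither passed in any comparison.

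The HSP90 genes showed no change past the threshold. Hsp90aa1 measured 454 and 534 CPM in untreated mutant cells, 482 and 465 CPM with oxLDL, 487 CPM in untreated wild-type cells and 658 CPM with oxLDL. Only the wild-type oxLDL library stood apart. Hsp90ab1 measured 1172 and 1333 CPM in untreated mutant cells, 1382 and 1275 CPM with oxLDL, 1407 CPM in untreated wild-type cells and 1366 CPM with oxLDL, with the mutant and wild-type values overlapping. The log2 fold changes for oxLDL in the mutant were -0.08 (95% interval -0.37 to 0.22) and 0.07 (95% interval -0.26 to 0.40). Of the 75-base stretches of Hsp90aa1, 53.1% occur in other annotated genes outside the count table.

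The J-domain partners were as flat. Dnajb1, the HSP40 that delivers clients to cytosolic HSP70 after heat, measured 38.1 and 35.7 CPM in untreated mutant cells, 36.9 and 32.5 CPM with oxLDL, 38.5 CPM in untreated wild-type cells and 36.8 CPM with oxLDL. Its range of 1.19-fold was the smallest of the 9 rows. Dnaja1, a farnesylated J-domain partner of HSP70, measured 183 and 198 CPM in untreated mutant cells, 178 and 175 CPM with oxLDL, 255 CPM in untreated wild-type cells and 212 CPM with oxLDL. Its mutant groups did not overlap, yet the difference did not pass (log2 fold change -0.12 ± 0.09, 95% interval -0.35 to 0.10). The 95% interval for Dnajb1 ran from -0.38 to 0.18. Of the 75-base stretches of Dnaja1, 16.6% occur in other annotated genes outside the count table.

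Counting rows whose libraries did not overlap gave a similar picture. In the mutant, 5 of 9 rows did not overlap between untreated and oxLDL (Hspd1, Hspe1 and Hsph1 higher, Hspa8 and Dnaja1 lower), against 72.1% of all tested genes. Over all 6 libraries 4 of 9 rows did not overlap (the same without Dnaja1), against 47.8% of all genes. Both shares are near or below those of all genes.

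**Figure D2:**
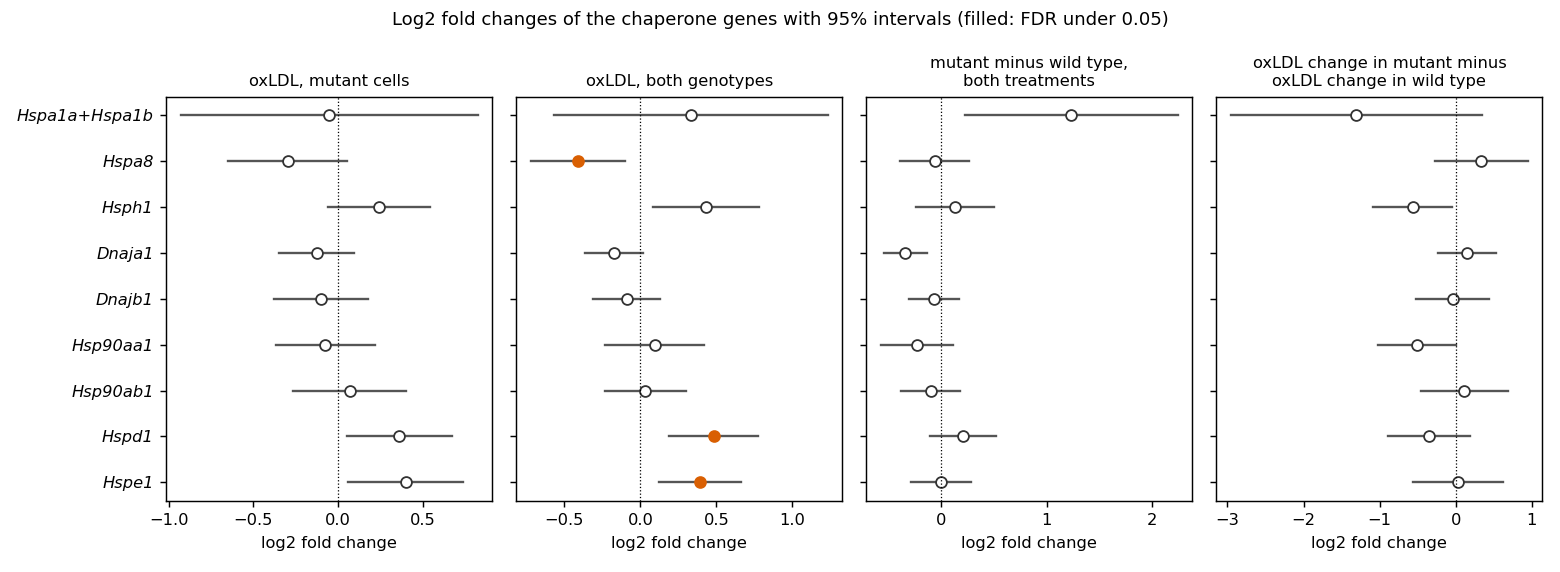
Log2 fold changes of the 9 chaperone rows with 95% intervals, by comparison. Filled points passed an FDR of 0.05 in edgeR's quasi-likelihood test. Filled points occur only for oxLDL across genotypes, at Hspd1 (0.48), Hspe1 (0.39) and Hspa8 (-0.41).

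In wild-type cells 1 library stood against 1, so there was no replicate check and differences are given by size. Of the 8 rows that reached 5 CPM in either library, 0 differed by 2-fold or more, against 19.6% of all genes at that level. Hsph1 came nearest, with a log2 fold change of 0.81, then Hspd1 with 0.72 and Hspa8 with -0.63. Hsp90aa1 differed by 0.43 and Hspe1 by 0.37. The sum of Hspa1a and Hspa1b differed by 1.21, from 1.79 to 4.29 CPM, below that level.

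The edgeR test of the difference between genotypes in the oxLDL response gave 0 of 9 rows at an FDR of 0.05, against 0.489% of all genes (62 genes). DESeq2 also called 0 rows, with 221 genes called in all. At an unadjusted edgeR p under 0.05 there were 2 rows, against 11.0% of all genes. They were Hsph1 (-0.57 ± 0.21 on the log2 scale, edgeR adjusted p = 0.422) and Hsp90aa1 (-0.51 ± 0.21, adjusted p = 0.454). Hsph1 had the larger increase in the wild-type pair. Hsp90aa1 was higher with oxLDL in the wild-type pair only (log2 fold change 0.43, against -0.08 in the mutant). The sum of Hspa1a and Hspa1b gave -1.31 ± 0.67 (adjusted p = 0.535).

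The genotype comparison across treatments, with 4 mutant against 2 wild-type libraries and treatment as a covariate, also called 0 of 9 rows, against 4.04% of all genes. At an unadjusted p under 0.05 there were 2 rows, against 24.4% of all genes. The sum of Hspa1a and Hspa1b was higher in all 4 mutant libraries (5.07 to 8.85 CPM) than in both wild-type libraries (1.79 and 4.29 CPM), with a log2 fold change of 1.23 ± 0.42 (95% interval 0.22 to 2.24; edgeR adjusted p = 0.145). Dnaja1 was lower in all 4 mutant libraries (175 to 198 CPM) than in both wild-type libraries (212 and 255 CPM), with a log2 fold change of -0.34 ± 0.08 (edgeR adjusted p = 0.0741). DESeq2 called Dnaja1 (adjusted p = 0.00649), and edgeR without the filter on low counts called the Hspa1a and Hspa1b sum (0.0457). With a single library in each wild-type group, genotype and any feature of those cultures cannot be told apart.

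The genotypes were also compared within each treatment. In untreated cells 0 of 9 rows passed, against 7.05% of all genes, and 3 had an unadjusted p under 0.05, against 27.1%. These were the sum of Hspa1a and Hspa1b (log2 fold change 1.95 ± 0.51, edgeR adjusted p = 0.0744), Dnaja1 (-0.41 ± 0.11, adjusted p = 0.0758) and Hsph1 (0.42 ± 0.15, adjusted p = 0.148). DESeq2 called 1 of them, the Hspa1a and Hspa1b sum, with 1303 genes called in all, against 895 in the main edgeR fit. Without the filter on low counts, edgeR called that sum and Dnaja1, with 2434 genes called in all. The sum was also called by edgeR with either mutant oxLDL library left out, where calls over all genes rose as well. In oxLDL-treated cells 0 of 9 rows passed with edgeR, against 0.481% of all genes (61 genes). DESeq2 also called 0 rows, with 391 genes called in all. Hsp90aa1 alone had an unadjusted edgeR p under 0.05 (log2 fold change -0.48 ± 0.14, edgeR adjusted p = 0.231), against 14.3% of all genes.

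Other features of the libraries moved with some of these groups. Within each genotype, the macrophage markers Emr1, Csf1r, Fcgr1, Cd14, Itgam and Lyz2 were lower with oxLDL, and Cd68 and Mertk were higher. Emr1 measured 4394 and 4396 CPM in untreated mutant cells and 827 and 818 CPM with oxLDL. In wild type Emr1 measured 6193 CPM untreated and 1098 CPM with oxLDL. A list of 24 pancreatic genes summed to 3.15 and 3.45 CPM in untreated mutant cells, 210 and 167 CPM with oxLDL, 281 CPM in untreated wild-type cells and 1.86 CPM with oxLDL, with Amy2a5 the most abundant (0 in 3 libraries and 73.4 to 123 CPM in the others). This sum was above the untreated level in oxLDL-treated mutant cells and below it in oxLDL-treated wild-type cells. Neutrophil markers summed to 39.2 CPM in the untreated wild-type library and to between 0.701 and 2.24 CPM elsewhere. Dendritic cell markers summed to between 45.8 and 61.2 CPM in the mutant libraries and to 12.1 and 15.4 CPM in the wild-type ones. Itgax, which macrophages can also express, made up most of that sum in the mutant (42.2 to 58.9 CPM, against 6.14 and 13.7 CPM in wild type), while Xcr1 overlapped between genotypes (1.55 to 4.79 CPM in the mutant, 1.34 and 5.22 CPM in wild type). Total counts were 19684990 and 24273551 in the mutant oxLDL libraries and 11281692 and 13597908 in the untreated mutant ones. The part of these features in the chaperone differences was not tested. In these bulk samples, fewer cells of a type and less RNA per cell cannot be told apart.

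Related genes of the folding machinery, taken from lists, are given beside the 35.6% of all tested genes called for oxLDL in the mutant (2090 higher and 2426 lower of 12688) and the median of 0.01 over all genes. Among 12 other mitochondrial chaperones and proteases, 6 rose with oxLDL in the mutant, 0 fell and 6 did not pass, with a median log2 fold change of 0.50. Hspa9, the mitochondrial HSP70 that pulls proteins into the matrix, measured 269 and 303 CPM in untreated mutant cells, 658 and 657 CPM with oxLDL, 256 CPM in untreated wild-type cells and 633 CPM with oxLDL. Its rise of 2.28-fold in the mutant (log2 fold change 1.19 ± 0.11, edgeR adjusted p = 0.00105) was larger than that of any of the 9 chaperone rows. Lonp1, the matrix protease that degrades damaged proteins, rose by 0.96 on the log2 scale (adjusted p = 0.00200). Dnaja3, the J-domain partner of Hspa9, and Grpel2, a nucleotide exchange factor for it, each rose by 0.69 (adjusted p = 0.00360 and 0.00761). Across genotypes 7 of the 12 rose and 0 fell, against 40.5% of all genes called and 19.1% called higher.

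Of 9 other DNAJA and DNAJB genes, which encode J-domain partners of HSP70, 4 rose in the mutant and 0 fell, against 35.6% of all genes called, with a median of 0.43. Dnajb2 rose by 0.89, Dnajb12 by 0.56, Dnajb6 by 0.45 and Dnajb4 by 0.43 on the log2 scale (edgeR adjusted p from 0.0101 to 0.0244). Of these 4, Dnajb12 alone passed with each library left out in turn. Dnajb2 was lost without either untreated mutant library, Dnajb6 without mutant untreated replicate 2 or mutant oxLDL replicate 1, and Dnajb4 with DESeq2 and without any mutant library but mutant oxLDL replicate 2. Fewer of the 9 genes were called without either untreated mutant library or without mutant oxLDL replicate 1, and calls over all genes fell as well. In untreated cells Dnajb4 was higher in the mutant (0.86, edgeR adjusted p = 0.0301), a call lost without either untreated mutant library. Dnajb6 shares 33.3% of its 75-base stretches with other genes.

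Of 7 other HSP70 and HSP110 genes, most of them cytosolic, 2 rose and 2 fell, against 35.6% of all genes called. Hspa4l, an HSP110, rose 1.99-fold and Hspa13, an HSP70 of microsomes, 1.72-fold, while Hspa14, a ribosome-bound HSP70, fell by 0.74 and Hspa2, known from the testis, fell by 0.68 on the log2 scale (edgeR adjusted p from 0.00253 to 0.0372). Hspa2, at 3.91 to 10.2 CPM, did not pass without any 1 mutant library or with DESeq2, and 14.4% of the 75-base stretches of Hspa14 occur in other genes. Of 26 co-chaperones of HSP70 and HSP90, 3 rose, 4 fell and 19 did not pass, a share below the 35.6% of all genes, with a median of 0.02. Bag2, an exchange factor that restrains client degradation, rose by 1.41 and Unc45a, a myosin chaperone that binds HSP90, by 0.93. Fkbp5, an HSP90 immunophilin induced by glucocorticoids, fell by 2.27 and Ahsa1, which activates the HSP90 ATPase, fell by 0.49 (edgeR adjusted p from 0.00532 to 0.0109). Ahsa1, with 11.7% of its stretches in another gene, was not called without mutant untreated replicate 2 (0.0522). Fewer co-chaperones were called without that library or without either mutant oxLDL library, and calls over all genes fell as well. Ahsa1 was also lower in the mutant than in wild type across treatments (log2 fold change -0.71, adjusted p = 0.0172), and was the only gene of the chaperone lists called for genotype across treatments. That call was lost without either untreated mutant library. It was also lost without the untreated wild-type library, where the test becomes that within oxLDL-treated cells.

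Of 18 chaperones of the endoplasmic reticulum, 5 rose and 1 fell, a share near the 35.6% of all genes, with a median of 0.07. Hyou1, an HSP110-like exchange factor, rose by 0.90, and the J-domain genes Dnajb9 and Dnajc10 by 0.83 and 0.70 (edgeR adjusted p from 0.00118 to 0.00756). P4hb, a protein disulfide isomerase, rose by 0.50 (adjusted p = 0.0135) and was not called without mutant untreated replicate 2 or mutant oxLDL replicate 1. Fewer of the 18 were called without mutant untreated replicate 2, where calls over all genes fell as well. A list of 15 genes held subunits of the cytosolic chaperonin TRiC and of prefoldin, and Pdcl3, a TRiC partner that is no subunit of either. Of these, 0 rose and 2 fell, against 35.6% of all genes called, with a median of -0.15. Pdcl3 fell by 0.59 and, among the subunits, Cct6a by 0.35. Cct6a was lost without any 1 mutant library and Pdcl3 without mutant untreated replicate 2. Of the 3 tested genes listed by symbol as small heat shock proteins, Cryab, Hspb6 and Hspb11, 0 passed. The other 7 listed ones had too few reads. Of 8 heat shock factors and regulators, 2 rose and 1 fell, a share near that of all genes. Ier5, a coactivator of heat shock factor 1, fell by 0.75, the deacetylase gene Sirt1 rose by 0.41 and Vcp, the unfolding ATPase, rose by 0.40. Vcp, with 55.7% of its stretches in other genes, was lost without any 1 mutant library, and Sirt1 with DESeq2 and without any but mutant oxLDL replicate 1. Hsf2 gave 0.27 ± 0.12 and did not pass (edgeR adjusted p = 0.153).

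A list of 13 other heat-inducible genes, some of them in the lists above, had 3 higher, 3 lower and 7 not passing in the mutant, against 35.6% of all genes called, and 5 higher and 3 lower across genotypes, against 40.5%. Zfand2a, induced by arsenite and heat, rose by 1.06 (edgeR adjusted p = 0.00217), against falls of 0.75 for Ier5 and 0.49 for Ahsa1. Of 21 immediate early genes, which respond to handling and serum within minutes, 3 rose and 9 fell in the mutant, against 35.6% of all genes called, among them Fos, which fell by 4.27, and Junb, which fell by 1.80. Fewer of the heat-inducible genes were called without mutant untreated replicate 2, where calls over all genes fell as well. For the difference in oxLDL response between genotypes, 0 genes of the chaperone lists passed.

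**Figure D3:**
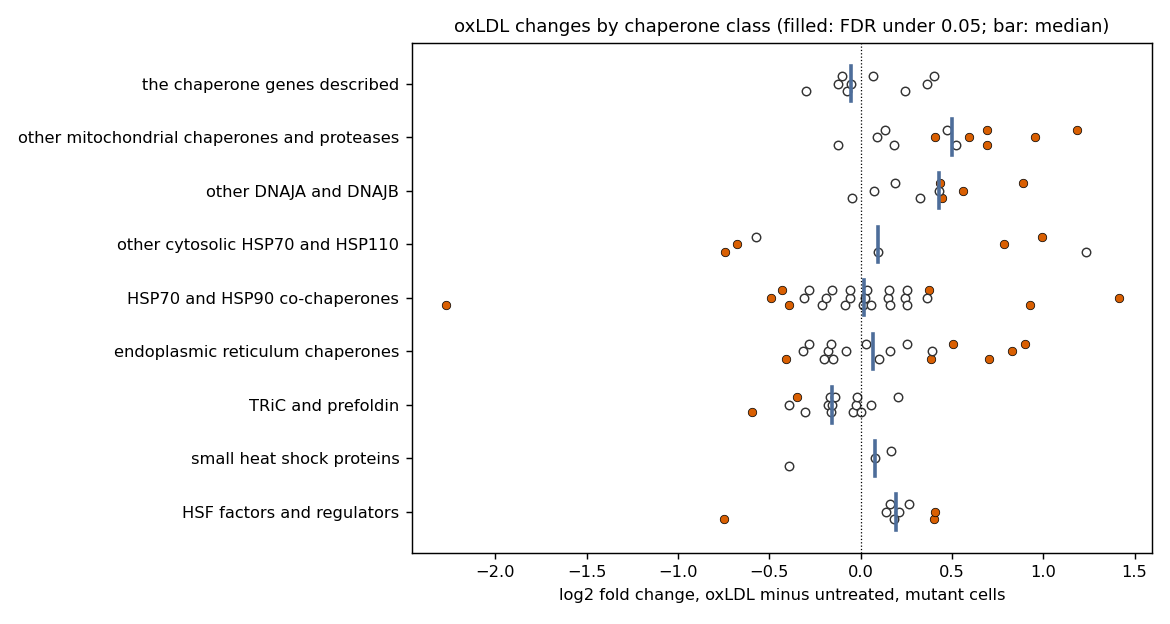
Log2 fold change of each tested gene for oxLDL in mutant cells, 1 row per chaperone class, with filled points for genes past an FDR of 0.05 in edgeR's test. The 12 other mitochondrial genes reach to 1.19 (Hspa9), while the 9 rows described here lie between -0.30 and 0.40.

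The genes whose levels tracked the chaperones most closely over the 6 libraries are given as a description, from 10307 genes that share libraries and scaling. Log2 levels of Hspd1 correlated with Srm, which makes spermidine (Pearson r = 0.992), with the mitochondrial genes Mcu (0.991), Sfxn1 (0.988), Ndufs7 (0.987) and Letm1 (0.985). The sum of Hspa1a and Hspa1b correlated with Zmpste24 (0.994), Rprd1a (0.992), Bsg (0.984), Slc35f6 (0.982) and 2610034B18Rik (0.981). These values were not tested.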

How the data were processed

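For 6 libraries the authors deposited expected counts from RSEM and a normalised signal, both by gene. Per the submitters' processing notes, reads were aligned with Bowtie2 2.1.0, counted with RSEM 1.2.15 and normalised with edgeR. Those notes name the human build hg19, while the gene names are those of mouse, so the genome build of the counting and its strand setting are not given in the sources used here. The deposited signal steps by the value of 1 read in each library (100% of values whole within a tolerance of 1e-06) and is printed as TMM-scaled CPM.

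Expected counts were rounded, Hspa1a and Hspa1b were summed, and the whole table was fitted with edgeR 4.0.16 in R 4.3.3 (filterByExpr, TMM, glmQLFit and glmQLFTest, Benjamini-Hochberg over 12688 rows). A model of 4 group means gave the comparisons within a genotype or treatment and their difference, which take the spread of the lone wild-type libraries to be that of the mutant pairs. An additive model gave those across genotypes and treatments. Wild-type log2 fold changes used a prior count of 2 and a level of 5 CPM. DESeq2 1.42.0, limma 3.58.1 (log2 of the signal + 1), RLE factors, no filter, separate Hspa1 rows, a replicate block, each library left out and, chosen after seeing the data, whole reads recovered from the signal were alternatives. With those reads the count test called 4515 genes for oxLDL in the mutant, and the same chaperone rows in every comparison. The fits were tested on simulated data.

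Shared sequence and lengths came from GENCODE M21 transcripts. Named genes were all 10 chaperones, Fermt3, up to 4 genes per list with the smallest p for oxLDL in the mutant, and the 5 genes most correlated with Hspd1 and with the Hspa1a and Hspa1b sum. The genes and lists were chosen with earlier results of these data known. Dnajb4 and Ahsa1 were named for genotype after their values were seen. Intervals are 95% confidence intervals of the log2 fold change from edgeR's fits. Their standard errors were derived from the log2 fold change and the F statistic, whose spread is moderated across genes.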

Additional observations from a re-analysis of the deposited data

How the results depend on the processing

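Of 410 alternative values for single chaperone rows, 364 kept their direction and side of the threshold. Of the rest, 16 lost and 11 gained a call, and 19 changed sign, the sign changes all on leaving out a library. These values cover oxLDL in the mutant and across genotypes, genotype across treatments and the difference in response. The genotype comparisons within each treatment are not in this tally. For oxLDL in the mutant, edgeR called 0 rows, DESeq2 called 1 (Hspa8) and no filter called 2 (Hspd1 and Hspe1). Calls over all genes were 3699 with DESeq2 and 5170 without the filter, against 4516. Leaving out a library changed the row calls only for mutant untreated replicate 2. Hspd1 and Hspe1 were then called, while calls over all genes fell. Across genotypes at least 1 of the 3 calls was lost with each library left out, and calls over all genes fell in each of these fits. For genotype across treatments DESeq2 and no filter each called 1 row, with 1513 and 1389 genes called overall against 512. In untreated cells DESeq2 called 1 row and no filter 2, with 1303 and 2434 genes against 895, and leaving out a library gave 0 to 1. In wild type, an edgeR test that assumes the spread of the mutant pairs called 2 of 9 rows (Hsph1 and Hspd1), and 2948 of all 12688 tested genes. With 1 library per arm, it measures no wild-type spread.

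Log2 fold changes that changed sign on leaving out a library were, for oxLDL in the mutant, the Hspa1a and Hspa1b sum (-0.43 to 0.41), Hsp90aa1 (-0.17 to 0.049), Hsp90ab1 (-0.0051 to 0.17), Cryab (-1.08 to 0.091) and Hspb11 (-0.046 to 0.20). Across genotypes they were the Hspa1a and Hspa1b sum (-0.054 to 0.74), Hsp90aa1 (-0.082 to 0.21) and Hsp90ab1 (-0.026 to 0.074). For genotype across treatments they were Hspa8 (-0.23 to 0.11), Hsph1 (-0.14 to 0.42), Hsp90aa1 (-0.47 to 0.030) and Hspe1 (-0.088 to 0.065). For the difference in response they were Dnajb1 (-0.13 to 0.048) and Hspe1 (-0.12 to 0.24). The fits with a library left out have fewer samples. With 1 wild-type library left out, the oxLDL comparison across genotypes becomes that in the mutant. The genotype comparison across treatments then becomes that within 1 treatment. The log2 fold changes for genotype in untreated and in oxLDL-treated cells were -0.23 and 0.11 for Hspa8. They were 0.42 and -0.15 for Hsph1, and 0.03 and -0.48 for Hsp90aa1. Other causes of the sign changes were not tested.

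With a replicate block in the mutant, 0 chaperone rows passed and 4918 genes did, against 4516. The labels do not say whether same-numbered libraries are paired (correlation of deviations 0.204). Of 525 alternative values for 36 list genes, 488 kept their side, 34 lost a call and 3 changed sign. The Hspa1a and Hspa1b sum, the row with the fewest counts, had the largest standard errors.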
